A study of Drosophila melanogaster with 12 samples.

Results

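The comparison described here is the difference between 2 mating regimes in how expression in the male reproductive tract of Drosophila melanogaster changed with age. For each of 6 populations the age change of a gene was the log2 ratio of its level at 96 h over its level at 48 h, and the 3 changes of the polygamous populations were set against the 3 changes of the monogamous populations. All 12 of the 12 libraries of the series entered the comparison, and it was repeated with the 10 libraries that remained without monogamous population 1. In the text a difference is the polygamous change minus the monogamous change on the log2 scale, so a negative difference means that a transcript rose less, or fell more, with age in polygamous males.

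All 6 populations came from a single base population of the species and had evolved for 168 generations, 3 with groups of 5 males and 5 females (polygamous populations 1 to 3) and 3 with males and virgin females kept in single pairs (monogamous populations 1 to 3). The males measured were virgins in both regimes, aged for 48 or 96 h, so the regimes differ in the mating history of their ancestors and not in that of the males themselves. Each library was made by stranded total RNA sequencing from 30 pooled reproductive tracts of 1 population at 1 age, dissected to hold testes, accessory glands and duct. A population is therefore 1 replicate of its regime, and each of the 4 groups of regime and age held 3 libraries.

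The accessory gland secretes most of the proteins that a male transfers with his sperm, and these change the female's egg laying, receptivity, sperm storage and lifespan. Main cells, which make up nearly all of the gland's secretory epithelium, produce the bulk of them, and the sparse secondary cells at the tip of each lobe produce a distinct subset under the control of the Hox protein Abd-B. One of the products of the main cells, sex peptide, acts for days because a set of further seminal proteins, some of them from secondary cells, binds it to sperm in the female. Glands of young males fill over the first days of adult life, so the level of these transcripts with age bears on how soon a male has his ejaculate ready.

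Gene counts summed to 31367030 to 40581251 per library, and expression is given in CPM, gene counts scaled to a common library total. In every library the testis tubulin transcript betaTub85D (2478 to 3429 CPM), the main cell transcript Acp36DE (2772 to 14668 CPM) and the duct transcript Dup99B (567 to 2374 CPM) were present. Monogamous population 1 differed from the rest, above all at 48 h. Along principal component 1 (26.8% of the variance) its 48 h library lay at -68.2 and its 96 h library at -26.4, while the other 10 libraries lay between -6.01 and 19.9. Seminal fluid genes made up 3.06% of counts in its 48 h library and 6.06% to 7.68% of the counts of the other 5 libraries at 48 h. In a bulk tract, fewer cells of a type and less RNA per cell cannot be told apart, so each level below is a share of the tract's RNA.

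With all 6 populations in the fit, the age change of 0 of 13156 genes differed between polygamous and monogamous males at a Benjamini-Hochberg adjusted p under 0.05 in the quasi-likelihood test of edgeR with the population as block, which is 0% of the genes tested. At an unadjusted p under 0.05 there were 681 genes (5.18%), close to the share that a threshold of 0.05 passes where nothing differs, and the change was lower in polygamous males in 476 of them (3.62% of the genes tested). DESeq2 called 1 gene and limma on the 6 changes called 0. The gene that DESeq2 called was Sfp24Ba, whose values are given further on. Leaving out monogamous population 2 gave 4 calls (CG30427, Sfp24Ba, Sfp24Bb and Sfp60F), and leaving out monogamous population 3 or any polygamous population gave 0. For a single gene, an exact permutation test of 3 changes against 3 cannot go below a two-sided p of 0.1.

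Without monogamous population 1, a group of transcripts separated the regimes. Of 13226 genes, 105 had a lower age change in polygamous than in monogamous males, which is 0.794% of the genes tested, and 5 had a higher one (0.0378%; edgeR, adjusted p under 0.05), which makes 110 in all (0.832%). At an unadjusted p under 0.05 there were 1200 genes (9.07%), of which 839 were lower (6.34%). The differences were small, with a median of -0.35 over the 105 genes and quartiles of -0.41 and -0.31, which at the median is a 1.27-fold gap. These genes were well expressed, at a median of 99.5 CPM, while the median of all genes tested was 14.2 CPM. Small differences are easier to call at high counts, and the part of this in the level was not tested. Of the 105, 98 were protein-coding and 7 non-coding, and 26 encode named seminal fluid proteins. They lay on every major chromosome arm, with 10.5% on the X chromosome, where 14.9% of the genes tested lie.

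Most of the 105 genes fell with age in polygamous males, and most did not in monogamous males. Their median change was -0.30, -0.26 and -0.35 in polygamous populations 1 to 3, against 1.32, 0.06 and 0.04 in monogamous populations 1 to 3. Tested for age alone in the same fit, 74 of these genes went down, 7 went up and 24 were not called in polygamous males, while 12 went down, 39 went up and 54 were not called in monogamous males. The choice of genes by a lower polygamous change favours such counts, and the monogamous term rests on 2 populations against 3. The fitted change was negative in both regimes in 40 genes, positive in both in 11, and negative only in polygamous males in 54. Over all genes, 8.42% fell and 6.69% rose with age in polygamous males, against 4.12% and 4.14% in monogamous males. Over all 6 populations these shares were 0.213% and 0.106% in polygamous males, against 0.578% and 0.92% in monogamous males. Among these chosen genes the separation stood mostly at the younger age. All 3 polygamous libraries lay above those of monogamous populations 2 and 3 at 48 h in 71 of the 105 genes, and for 17.2% of all genes. At 96 h they lay below both in 7 of the genes (11.1% of all genes) and above both in 1 (11.9%). The genes were chosen by a difference made from these same levels, so the shares of all genes are not a like baseline. The median of the 105 genes in monogamous populations 2 and 3 was 0.28 log2 units under the polygamous mean at 48 h (-0.28) and 0.08 above it at 96 h.

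**Figure D1:**
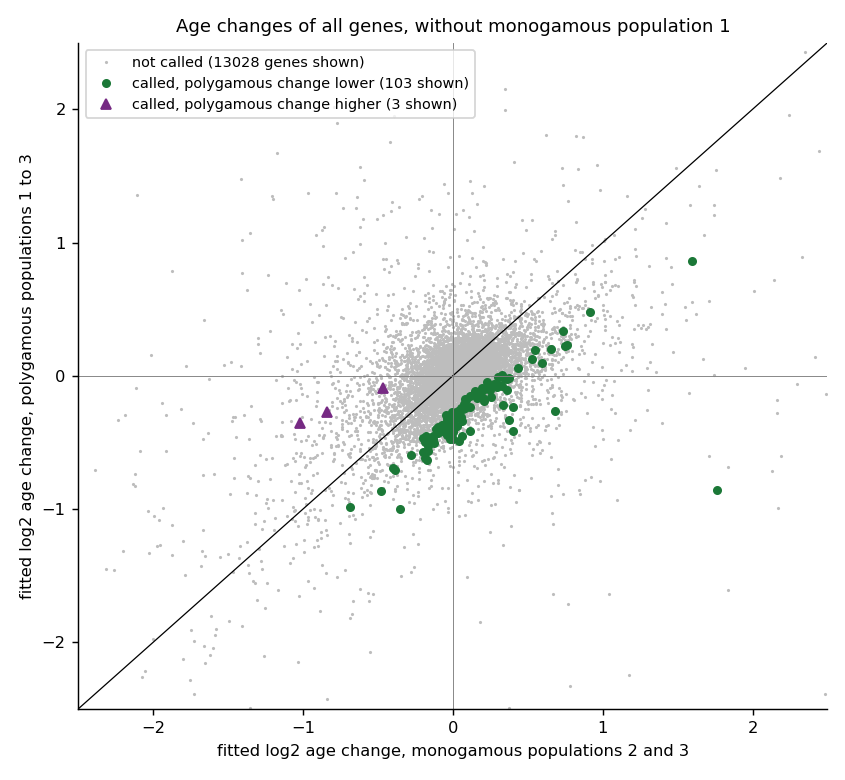
Fitted log2 age change of each gene in polygamous populations 1 to 3 (vertical axis) against monogamous populations 2 and 3 (horizontal axis), in the fit without monogamous population 1. Grey points are the 13028 genes shown that did not pass, green circles the 103 shown with a lower polygamous change and purple triangles the 3 shown with a higher one, and the green points run along a line under the diagonal of equal changes; genes with a change beyond 2.5 in either regime are not drawn.

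In monogamous population 1 the median change of the 105 genes was 1.32, against 0.06 and 0.04 in monogamous populations 2 and 3. The age change of population 1 lay above all 3 polygamous changes in 101 of the 105 genes, within them in 1 and below them in 3. The share of all genes with such a change was not counted. The choice of genes by low polygamous changes favours such a count, so it is no separate support. In this population the median change was 0.61 for ER translocation and folding, 0.58 for muscle, -0.36 for spermatid genes and 0.009 over all genes. With population 1 included, all 105 differences stayed negative. The genes were chosen for this in 10 of the same 12 libraries, so the kept sign is no separate support. The median of the differences moved to -0.76. Their median SE was 0.35 with all 6 populations and 0.060 without population 1. With all 6 populations, 100 of the 105 genes had 3 polygamous changes below all 3 monogamous changes (9.51% of all genes did). Without population 1, 104 of the chosen genes had no overlap already, so this count is no separate support either. At 48 h the 105 genes stood at a median log2 ratio of -1.55 in this population relative to the polygamous mean, and at 0.03 at 96 h. What sets its 48 h library apart was not tested.

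The number of called genes varied with the block, the populations and the scaling. Without the block the count was 0, with 329 genes at an unadjusted p under 0.05. It was 47 on leaving out monogamous population 2 as well, 19 without monogamous population 3 and 171, 152 and 38 without polygamous populations 1, 2 and 3. The first 2 of these fits hold 1 monogamous population, so their spread comes from the polygamous populations alone and the single monogamous one is assumed to vary like them. The count was also 19 without robust estimation of the dispersion and 32 when libraries were scaled on testis genes, while DESeq2 called 88. Of the 110 genes, 16, 5, 98, 96 and 31 were among those calls when monogamous population 2 or 3 or polygamous population 1, 2 or 3 was left out, and 68 were among those of DESeq2. The direction was kept for 109 of the 110 genes without monogamous population 3 and for all those tested under each of the other settings. The genes were chosen by this difference, and every setting reuses the same libraries or a part of them. A kept direction is therefore no separate support.

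Nearly all of the sex peptide network was called. Without monogamous population 1, 8 of its 9 members were called, all with a lower age change in polygamous males (0.794% of all genes were called lower), and the list's median was -0.32 (-0.004 over all genes). With all 6 populations 0 of the 9 were called, 9 of 9 had a negative difference (48.2% of all genes did) and 8 had changes that did not overlap between the regimes (9.51%). The lectin genes lectin-46Ca and lectin-46Cb, neighbours on chromosome arm 2R, encode C-type lectins made by secondary cells. lectin-46Ca (FBgn0040093, BDGP6.54 chromosome 2R, 9817300 to 9818535, plus strand) stood at 424, 415 and 365 CPM at 48 h and 398, 388 and 352 CPM at 96 h in polygamous populations 1 to 3, against 36.7, 260.0 and 334 CPM at 48 h and 383, 308 and 410.3 CPM at 96 h in monogamous populations 1 to 3. Its polygamous levels were nearly flat, and its monogamous levels lay below all of them at 48 h. At 96 h monogamous populations 1 and 3 were within or above the polygamous levels, and monogamous population 2 was still below them. The changes were -0.09, -0.10 and -0.05 in the polygamous populations, against 3.38, 0.24 and 0.30 in the monogamous populations, and the difference was -0.35 ± 0.05 (SE) without population 1 (edgeR adjusted p = 0.0123) and -1.28 ± 0.85 with it (adjusted p = 0.726). lectin-46Cb had a difference of -0.41 ± 0.05 (adjusted p = 0.00615), with changes of -0.13, -0.08 and -0.02 in the polygamous populations, against 3.17, 0.30 and 0.35 in the monogamous populations. Both lectin genes overlap CG1648 on the other strand, and the strand setting of the counting is not given, so part of their counts could come from it.

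The cysteine-rich secretory protein genes CG17575 and antr are also neighbours on 2R. CG17575 (FBgn0250842, BDGP6.54 chromosome 2R, 12845544 to 12846596, minus strand) stood at 504, 433 and 386 CPM at 48 h and 407, 415 and 349.8 CPM at 96 h in polygamous populations 1 to 3, against 59.01, 301 and 361 CPM at 48 h and 430.5, 345 and 416 CPM at 96 h in monogamous populations 1 to 3, a difference of -0.37 ± 0.07 (edgeR adjusted p = 0.026). The changes of antr were 0.06, 0.06 and -0.11 in the polygamous populations, against 1.83, 0.39 and 0.27 in the monogamous populations (-0.32 ± 0.06, adjusted p = 0.0302). In both genes the groups of changes did not overlap, and the changes of the 3 monogamous populations were positive.

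The serine protease homologue genes CG9997, aqrs and intr lie close together on chromosome arm 3R. CG9997 (FBgn0039597, BDGP6.54 chromosome 3R, 28755484 to 28756979, minus strand) stood at 277, 280.2 and 280.4 CPM at 48 h and 216, 208 and 197 CPM at 96 h in polygamous populations 1 to 3, against 81.04, 205 and 256 CPM at 48 h and 216, 195 and 234 CPM at 96 h in monogamous populations 1 to 3, with a difference of -0.33 ± 0.05 (edgeR adjusted p = 0.0156). Here the polygamous populations fell and monogamous populations 2 and 3 stayed almost level, the reverse of the lectin genes in form but the same in sign. aqrs followed CG9997, with changes of -0.42, -0.41 and -0.52 in the polygamous populations, against 1.45, -0.15 and -0.21 in the monogamous populations (-0.27 ± 0.05, adjusted p = 0.0279), and intr had -0.12, -0.01 and -0.16 in the polygamous populations, against 1.38, 0.20 and 0.19 in the monogamous populations (-0.29 ± 0.06, adjusted p = 0.0476). Seminase (Sems), a trypsin-like protease that acts in the cascade processing other seminal proteins, had -0.23, -0.20 and -0.29 in the polygamous populations, against 1.58, 0.05 and 0.11 in the monogamous populations (-0.32 ± 0.05, adjusted p = 0.0156).

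The member that was not called was the sex peptide gene itself. SP (FBgn0003034, BDGP6.54 chromosome 3L, 13301635 to 13301922, plus strand) stood at 377, 570.4 and 400.0 CPM at 48 h and 434, 435 and 361 CPM at 96 h in polygamous populations 1 to 3, against 246, 415 and 396 CPM at 48 h and 296, 371 and 449 CPM at 96 h in monogamous populations 1 to 3. Its changes were 0.20, -0.39 and -0.15 in the polygamous populations, against 0.27, -0.16 and 0.18 in the monogamous populations and overlapped, and the difference was -0.12 ± 0.25 (edgeR adjusted p = 0.928). The SE of SP was several times that of the lectin genes, and this difference changed sign without monogamous population 3 or polygamous population 2. The count of 8 network genes called fell to 2 on leaving out monogamous population 2 or polygamous population 3 and to 0 on leaving out monogamous population 3, was 3 with testis scaling, 2 without robust estimation and 0 without the block, and was 7 or 8 under the other settings, while the median stayed between -0.34 and -0.30 throughout.

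**Figure D2:**
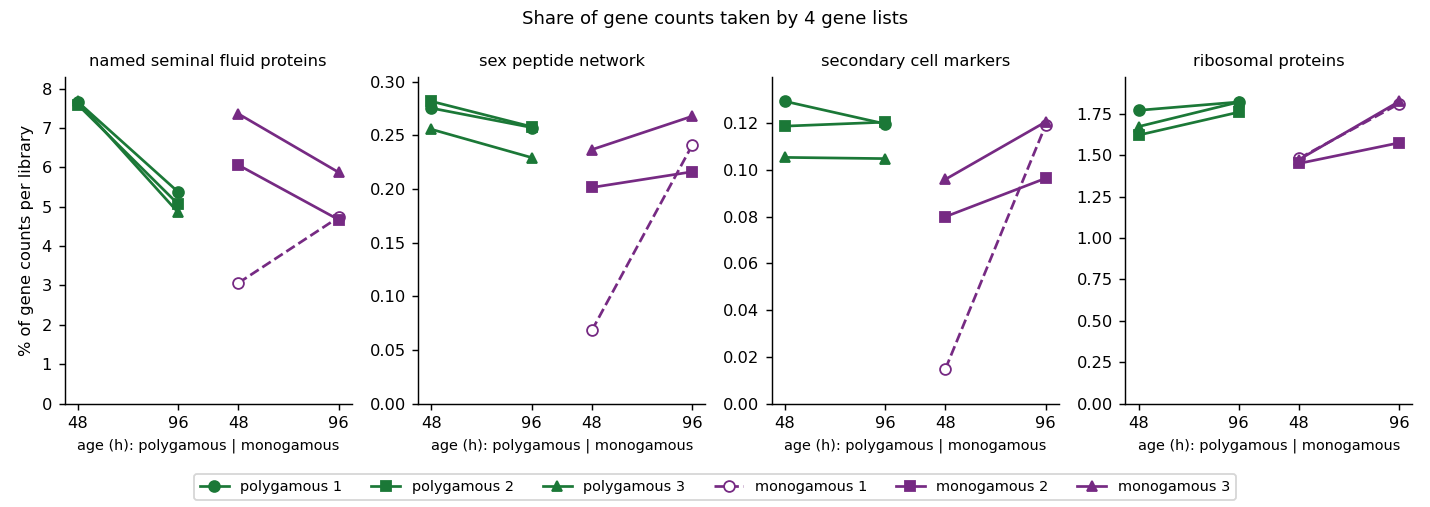
Share of each library's gene counts taken by 4 gene lists (vertical axes, % of gene counts, each from 0) at 48 and 96 h in polygamous (green) and monogamous (purple) populations, 1 line per population, with monogamous population 1 dashed and open. The seminal fluid list fell in all 3 polygamous populations and less steeply in monogamous populations 2 and 3, and the sex peptide network fell in the polygamous and rose in all 3 monogamous populations.

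Of 7 secondary cell markers 4 were called without population 1, all lower in polygamous males (0.794% of all genes; median -0.37), and 0 with all 6 populations. Of these, 3 are the network genes lectin-46Ca, lectin-46Cb and CG17575 described above, so 1 of the 4 markers outside the network was called. That marker was dve (FBgn0020307, BDGP6.54 chromosome 2R, 22243963 to 22286469, plus strand), a homeobox transcription factor gene of secondary cells that encodes no secreted protein. It stood at 13.8, 12.6 and 10.4 CPM at 48 h and 10.7, 10.05 and 8.55 CPM at 96 h in polygamous populations 1 to 3, against 2.97, 7.86 and 8.198 CPM at 48 h and 11.3, 10.4 and 10.4 CPM at 96 h in monogamous populations 1 to 3. The 3 polygamous changes were negative and the 3 monogamous changes positive, and the difference was -0.70 ± 0.11 (edgeR adjusted p = 0.0135). Abd-B, the Hox gene that sets secondary cell identity, stood at 24.3, 19.6 and 22.9 CPM at 48 h and 19.2, 20.7 and 20.3 CPM at 96 h in polygamous populations 1 to 3, against 14.6, 22.3 and 26.7 CPM at 48 h and 17.99, 19.2 and 21.7 CPM at 96 h in monogamous populations 1 to 3, its changes overlapped, and its difference was 0.11 ± 0.11 (adjusted p = 0.848). The remaining markers, CG14069 and CG3349, were not called. In monogamous population 1 the markers took 0.0149% of counts at 48 h, while the share was 0.0800% to 0.129% in the other libraries at that age, and its part in the result with all 6 populations was not tested. The count of 4 was 2 without monogamous population 2 and 0 without monogamous population 3 or without the block.

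Among named seminal fluid proteins as a whole, 26 of 74 measured genes were called with a lower age change in polygamous males without population 1 (0.794% of all genes) and 0 with a higher one, the median was -0.29 and 69 of the 74 differences were negative (51.3% of all genes). The 26 include Sfp24Ba, described further on, and the network genes lectin-46Ca, lectin-46Cb, CG17575, CG9997 and Sems. This list and the network are therefore not independent of each other. With all 6 populations 0 were called, the median was -0.69 and 70 were negative, and in both cases 49 of the 74 had a set of polygamous changes lying wholly below the monogamous ones (14.3% of all genes without population 1 and 9.51% with it). The list took 7.66%, 7.59% and 7.68% of counts at 48 h and 5.38%, 5.07% and 4.85% at 96 h in polygamous populations 1 to 3, against 3.06%, 6.06% and 7.36% at 48 h and 4.73%, 4.67% and 5.87% at 96 h in monogamous populations 1 to 3. The share fell in 5 of the 6 populations, most in the 3 polygamous ones (log2 ratios of -0.51, -0.58 and -0.66, against 0.63, -0.38 and -0.33). The count of 26 was 9 without monogamous population 2, 4 without monogamous population 3, 10 without polygamous population 3, 8 with testis scaling, 7 without robust estimation and 0 without the block.

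Several called seminal fluid genes had negative changes that were smaller in monogamous populations 2 and 3. Acp53Ea, Acp53C14a and Acp53C14b form a cluster of related genes on 2R and were called together, at -0.38, -0.32 and -0.36. Acp53Ea stood at 1494, 1576 and 1563 CPM at 48 h and 1040.0, 1101 and 969.8 CPM at 96 h in polygamous populations 1 to 3, against 541, 1164 and 1485 CPM at 48 h and 1011, 1049.8 and 1247 CPM at 96 h in monogamous populations 1 to 3. Monogamous population 2 began lowest of the 5 populations left and changed least. Acp29AB, a lectin gene needed for sperm to be kept in storage, gave -0.30 ± 0.05 (edgeR adjusted p = 0.0216), and Acp63F gave -0.38 ± 0.06 (adjusted p = 0.0135). These 5 were chosen after their values were seen, and Acp63F overlaps Scsalpha1 on the other strand.

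By the rule for list members, Acp32CD (FBgn0023415, BDGP6.54 chromosome 2L, 11015620 to 11016571, plus strand) had the smallest p of the list after the lectin genes and Sfp24Ba. It stood at 626, 602 and 530.3 CPM at 48 h and 584, 584 and 515 CPM at 96 h in polygamous populations 1 to 3, against 96.3, 397 and 482 CPM at 48 h and 584, 473 and 589 CPM at 96 h in monogamous populations 1 to 3, which is flat in polygamous males and rising in all 3 monogamous populations. The difference was -0.33 ± 0.05 (edgeR adjusted p = 0.0132), and the gene overlaps Samuel on the other strand.

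The main cell markers gave the same sign without a call. Of 6 markers 0 were called, with a median of -0.24. An unadjusted edgeR p under 0.05 was reached by 4, all lower (6.34% of all genes), and 6 of 6 differences were negative (51.3%). Acp26Aa, which encodes ovulin, the inducer of ovulation, stood at 3168, 3249 and 3006 CPM at 48 h and 1607, 1735 and 1478 CPM at 96 h in polygamous populations 1 to 3, against 793, 2351 and 2973 CPM at 48 h and 1618, 1779 and 1829 CPM at 96 h in monogamous populations 1 to 3. It had a difference of -0.42 ± 0.08 (edgeR adjusted p = 0.0658). Acp36DE, needed for sperm storage, had -0.23 ± 0.08 (adjusted p = 0.322), and Acp62F, a protease inhibitor gene, -0.23 ± 0.08 (adjusted p = 0.401). The serpin gene Acp76A, also of the seminal fluid, had -0.38 ± 0.09 (adjusted p = 0.157). In all 4 genes the polygamous changes lay below the monogamous ones, with population 1 (9.51% of all genes) and without it (14.3%), and none passed.

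The seminal fluid genes of the panel with the steepest fall with age, msopa, Sfp79B and Obp56e, did not separate the regimes. Acp76A, with polygamous changes of -1.58, -1.75 and -1.73, fell less steeply and, as given above, had changes that did not overlap. The male-specific gene msopa had log2 changes of -3.47 to -2.21 in polygamous and of -3.23 to -1.78 in monogamous populations, a difference of 0.40 ± 0.47 (edgeR adjusted p = 0.884). Sfp79B, next to it on 3L, gave 0.35 ± 0.43 (adjusted p = 0.886), and Obp56e, an odorant-binding protein gene of the seminal fluid, -0.17 ± 0.21 (adjusted p = 0.886). Their SE was 0.21 to 0.47, while the median SE of the 105 called genes was 0.060, so a difference of the size seen in the network was not detectable for them. Obp56f, next to Obp56e on 2R, was called (-0.29 ± 0.05, adjusted p = 0.0169), with changes of -0.66, -0.67 and -0.74 in the polygamous populations, against 0.85, -0.38 and -0.42 in the monogamous populations. It was the 1 gene called of 29 odorant-binding protein genes (0.794% of all genes were called lower). Obp99b, of the same family, gave -0.81 ± 0.59 (adjusted p = 0.803).

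Outside the seminal fluid lists, CG6770 (FBgn0032400, BDGP6.54 chromosome 2L, 12045343 to 12046118, minus strand) had the smallest p of all genes without population 1. It stood at 526, 457 and 507 CPM at 48 h and 620.2, 531 and 599 CPM at 96 h in polygamous populations 1 to 3, against 517, 277 and 404 CPM at 48 h and 619, 464 and 695 CPM at 96 h in monogamous populations 1 to 3. All 6 populations rose, and the changes were 0.24, 0.22 and 0.24 in the polygamous populations, against 0.26, 0.74 and 0.78 in the monogamous populations. The difference was -0.53 ± 0.05 (edgeR adjusted p = 0.000314), and it kept its call in 11 of 12 alternative settings of that fit. Monogamous population 1 changed by about as much as the polygamous populations, and with it in, the difference was -0.36 ± 0.14 (adjusted p = 0.726).

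**Figure D3:**
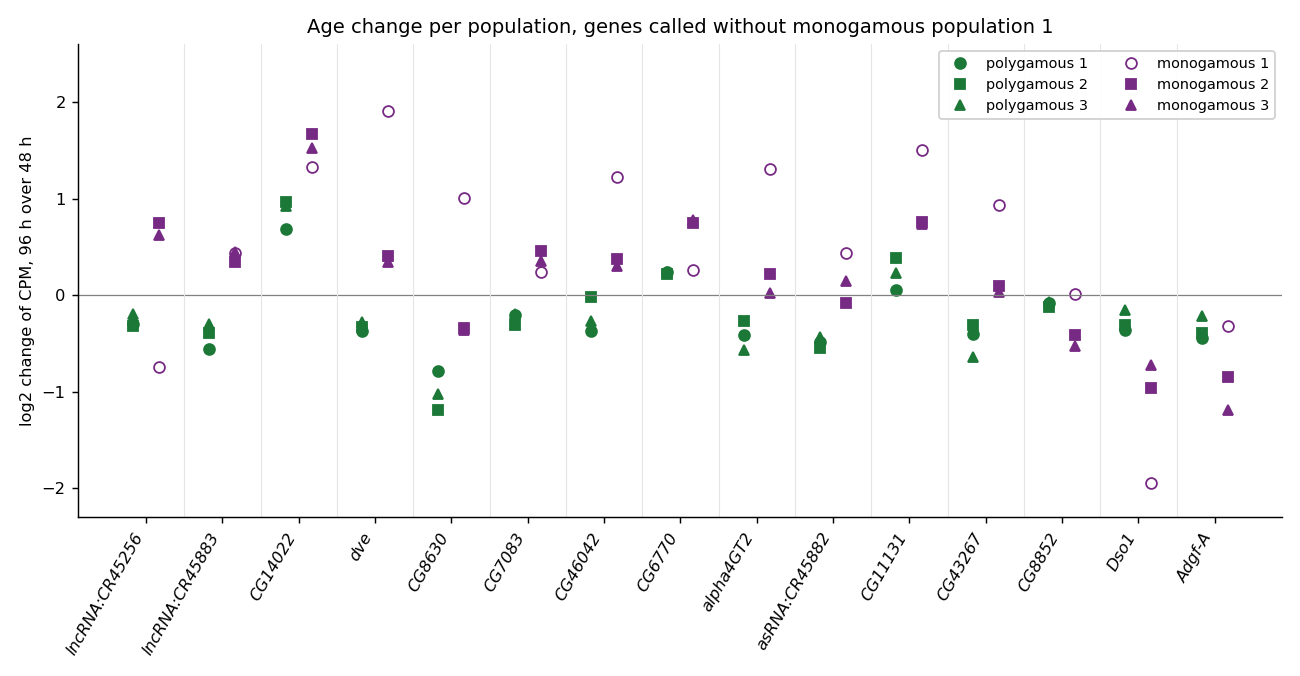
Log2 change of CPM from 48 to 96 h per population (vertical axis) for the 15 genes named by size of difference in the fit without monogamous population 1 (horizontal axis), with polygamous populations in green left of monogamous populations in purple; open circles are monogamous population 1, which that fit left out. Polygamous points lie below the filled monogamous points in the first 12 genes and above them in CG8852, Dso1 and Adgf-A.

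Among called genes of at least 5 CPM whose changes did not overlap, the largest negative differences were those of lncRNA:CR45256 (-0.95 ± 0.15, edgeR adjusted p = 0.0141), lncRNA:CR45883 (-0.82 ± 0.12, 0.0132) and CG14022 (-0.74 ± 0.13, 0.0178). lncRNA:CR45883 (FBgn0267543, BDGP6.54 chromosome 3L, 11667284 to 11667825, minus strand) stood at 11.7, 10.2 and 13.1 CPM at 48 h and 7.900, 7.77 and 10.7 CPM at 96 h in polygamous populations 1 to 3, against 7.12, 6.61 and 8.06 CPM at 48 h and 9.65, 8.41 and 11.02 CPM at 96 h in monogamous populations 1 to 3. It fell in each polygamous and rose in each monogamous population, and its difference was as large with population 1 in (-0.83 ± 0.12) but not called there (adjusted p = 0.401). The nearby asRNA:CR45882 gave -0.53 ± 0.09 (adjusted p = 0.0204). Both lie at CG32085, the first on its strand and the second on the other, so their counts may not be independent of it. lncRNA:CR45256 lies within hbs on the same strand, and its change in monogamous population 1 (-0.74) was below those of the polygamous populations.

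CG14022 rose in every population, with changes of 0.69, 0.96 and 0.93 in the polygamous populations, against 1.32, 1.67 and 1.53 in the monogamous populations. CG8630 fell in every population but monogamous population 1, with -0.79, -1.19 and -1.03 in the polygamous populations, against 1.01, -0.35 and -0.36 in the monogamous populations (-0.65 ± 0.11, edgeR adjusted p = 0.0169). The others of the group were CG7083 (-0.64 ± 0.11), CG46042 (-0.55 ± 0.12), alpha4GT2, a predicted galactosyltransferase gene (-0.53 ± 0.10), CG11131 (-0.52 ± 0.11) and CG43267 (-0.51 ± 0.09), with adjusted p from 0.0169 to 0.0437. CG7083 overlaps Prim1 and CG46042 overlaps Hs6st on the same strand, and CG43267 overlaps Eaf on the other. Of the 15 genes named by this rule, CG6770 kept its call under the most settings and CG46042 and CG8852 under the fewest, 3 of 12.

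Few genes went the other way. Adgf-A (FBgn0036752, BDGP6.54 chromosome 3L, 17751731 to 17764158, minus strand), an adenosine deaminase gene, stood at 36.8, 29.1 and 23.7 CPM at 48 h and 27.1, 22.2 and 20.3 CPM at 96 h in polygamous populations 1 to 3, against 21.5, 32.7 and 36.6 CPM at 48 h and 17.3, 18.2 and 16.1 CPM at 96 h in monogamous populations 1 to 3. It fell in all 6 populations, least in the polygamous ones and monogamous population 1, and the difference was 0.66 ± 0.11 (edgeR adjusted p = 0.0169). Dso1, which encodes an immune-induced peptide, gave 0.56 ± 0.10 (adjusted p = 0.0175), with changes of -0.36, -0.31 and -0.15 in the polygamous populations, against -1.95, -0.96 and -0.72 in the monogamous populations that did not overlap. CG8852 gave 0.38 ± 0.08 (adjusted p = 0.0476). Adgf-A overlaps Adgf-A2 on the same strand, and CG8852 overlaps Spindly on the other.

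The other 2 genes with a called higher change, Jon65Aiii and Peritrophin-15a, were nearly absent (0.0378% of all genes were called higher). Jon65Aiii, a protease gene of the gut and the 1 gene called of 14 gut enzymes, stood at 0.368, 1.07 and 0.462 CPM at 48 h and 0.242, 0.896 and 0.18 CPM at 96 h in polygamous populations 1 to 3, against 2.18, 15.3 and 0.248 CPM at 48 h and 15.2, 0.561 and 0.0488 CPM at 96 h in monogamous populations 1 to 3. Its level in the 48 h library of monogamous population 2 was the highest of that fit, and without that population the gene was not called. With population 1 in, the difference was 0.27 ± 2.56 (edgeR adjusted p = 0.975). Gut enzymes together took 0.0177% of counts in that 48 h library, and 0.00226% to 0.0189% in the others.

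Ribosomal protein genes leaned one way with almost no calls (0.794% of all genes were called lower without population 1). Of 86, 83 had a negative difference without population 1 (51.3% of all genes) and 81 of 86 with it (48.2%), with medians of -0.15 in both fits. Without population 1, 6 rose with age and 2 fell in polygamous males (6.69% and 8.42% of all genes), against 34 and 0 in monogamous males (4.14% and 4.12%), and these counts are not a test of the difference. With all 6 populations 0 were called for age in polygamous males, against 6 that rose in monogamous males. The 1 called was RpL22 (FBgn0015288, BDGP6.54 chromosome X, 762560 to 765130, minus strand), which stood at 68.1, 70.7 and 78.1 CPM at 48 h and 74.3, 78.9 and 83.4 CPM at 96 h in polygamous populations 1 to 3, against 44.1, 52.3 and 52.2 CPM at 48 h and 59.1, 69.02 and 81.8 CPM at 96 h in monogamous populations 1 to 3, with a difference of -0.40 ± 0.07 (edgeR adjusted p = 0.0204). All 6 populations rose, and the 3 monogamous ones rose more. RpL5 gave -0.19 ± 0.06 (adjusted p = 0.256) and was not called. Its polygamous changes also lay below the monogamous ones, with population 1 (9.51% of all genes) and without it (14.3%). The list's share of counts did not separate the regimes, since the log2 ratios were 0.04, 0.12 and 0.12 in polygamous populations 1 to 3, against 0.29, 0.12 and 0.31 in monogamous populations 1 to 3. RpL22 overlaps a non-coding RNA and small nucleolar RNAs on its own strand.

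Genes of the secretory machinery leaned toward a lower age change in polygamous males without a call. Of 27 genes of ER translocation and folding 0 were called for the difference without population 1, with a median of -0.04. At an unadjusted p under 0.05 there were 5, all lower (6.34% of all genes). Of the 27, 22 had a negative difference (51.3% of all genes) and 12 had polygamous changes wholly below the monogamous ones (14.3%). For vesicle traffic through COPI, COPII and the Golgi, 0 of 30 genes were called (6 at an unadjusted p under 0.05), with a median of -0.08, 23 negative differences and 16 genes with polygamous changes wholly below. For age alone, 21 of the 27 and 23 of the 30 fell in polygamous males (8.42% of all genes), against 13 and 18 in monogamous males (4.12%), and 0 of either list were called for age in either regime with all 6 populations. In the fit of all 6 populations the medians were -0.34 and -0.24, and in monogamous population 1 the median changes of these lists were 0.61 and 0.28, while they were -0.31 to -0.13 in the other 5 populations.

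**Figure D4:**
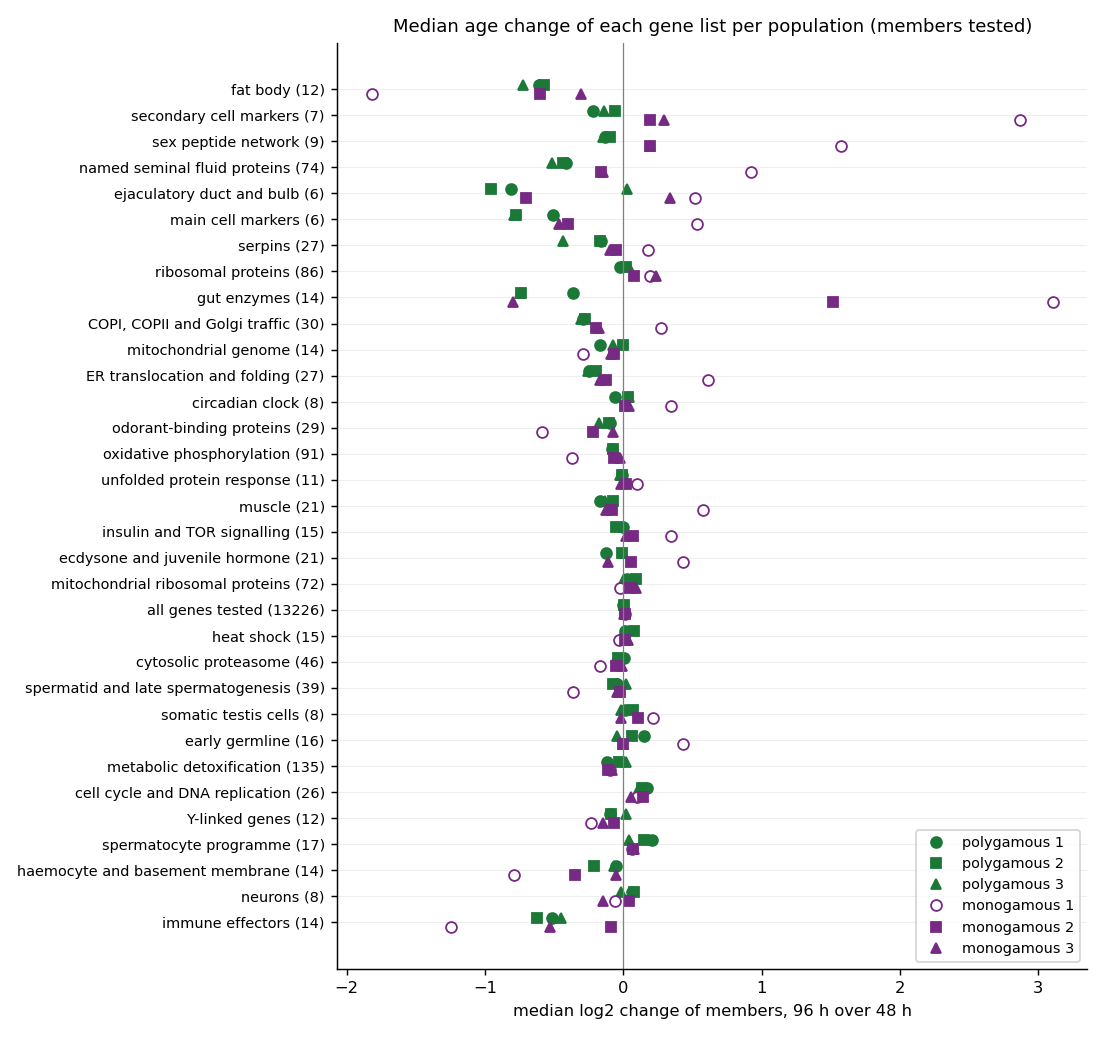
Median log2 age change of the measured members of 32 gene lists and of all genes (rows, number of members tested in brackets) in each population, with polygamous populations in green above monogamous populations in purple and monogamous population 1 as open circles. Polygamous medians lie left of all monogamous medians for secondary cell markers, the sex peptide network, named seminal fluid proteins, serpins and ribosomal proteins, among others, and the 3 germline lists stay within 0.21 of 0 outside monogamous population 1.

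Germline lists gave no called gene. Without population 1, 0 of 16 early germline, 0 of 17 spermatocyte and 0 of 39 spermatid genes were called by edgeR. The medians were 0.03, 0.07 and 0.01. At an unadjusted edgeR p under 0.05 there were 0, 1 and 3 genes (9.07% of all genes). The spermatocyte list had 1 negative difference of 17 (51.3% of all genes). For age alone, which is not a test of the difference, 6 of its genes rose in polygamous males (6.69% of all genes). In monogamous males 0 rose, and 0 in either regime with all 6 populations. The share of counts of the spermatocyte list changed by log2 ratios of 0.09, 0.07 and 0.05 in polygamous populations 1 to 3. In monogamous populations 1 to 3 the ratios were -0.05, 0.01 and -0.03, which do not overlap the polygamous ones. The shares of the neuron, cell cycle and globin lists did not overlap either. The medians of the spermatocyte members' changes did overlap, at 0.21, 0.15 and 0.04 in polygamous populations 1 to 3. They were 0.06, 0.07 and 0.08 in monogamous populations 1 to 3. betaTub85D gave -0.01 ± 0.06 (adjusted p = 0.963), the sperm protein gene Mst87F -0.08 ± 0.05 (adjusted p = 0.714) and the germline differentiation gene bam -0.11 ± 0.22 (adjusted p = 0.925). Over all 6 populations the spermatid list had 39 of 39 positive differences at a median of 0.10, and 0 calls. Of all genes, 48.2% had a negative difference in that fit. The spermatid share of counts was 6.20% in monogamous population 1 at 48 h and 4.69% to 5.22% in the other 11 libraries.

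Among serpins and detoxification enzymes 3 genes were called, and 0.794% of all genes were called lower. Spn42Dd was the 1 called of 27 serpins (-0.26 ± 0.05, edgeR adjusted p = 0.036), and it overlaps Spn42Dc on the same strand. Of 135 detoxification genes, the glycosyltransferase genes Ugt35B1 (-0.29 ± 0.06, adjusted p = 0.0395) and Ugt50B3 (-0.27 ± 0.06, adjusted p = 0.0416) were the 2 called lower, and the list's median was 0.03. Ugt50B3 stood at 1156, 1108 and 1038 CPM at 48 h and 869, 799 and 724 CPM at 96 h in polygamous populations 1 to 3, against 289.9, 890.0 and 1079 CPM at 48 h and 846, 806 and 901 CPM at 96 h in monogamous populations 1 to 3, a fall in every population but monogamous population 1, steepest in the polygamous ones. Of 91 oxidative phosphorylation genes 0 were called (3 at an unadjusted p under 0.05, against 9.07% of all genes, median -0.04), and 0 of 46 proteasome genes.

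Apart from the gut enzymes, the lists of other tissues gave no called difference. The collagen gene vkg fell in every population, with changes of -0.79, -0.74 and -0.49 in the polygamous populations, against -1.54, -1.47 and -0.83 in the monogamous populations, and glob1, a globin gene of the tracheae and fat body, with -0.99, -0.79 and -0.48 in the polygamous populations, against -1.87, -1.32 and -1.42 in the monogamous populations. In both, the polygamous changes lay above all monogamous changes, as in 6.69% of all genes with all 6 populations and 10.9% without population 1. Neither was called (0.45 ± 0.22, edgeR adjusted p = 0.675, and 0.61 ± 0.15, adjusted p = 0.255). Of 14 haemocyte and basement membrane genes 11 had a positive difference, with a median of 0.10, while 51.3% of all genes had a negative one. Of the 14, 0 were called (0 at an unadjusted p under 0.05). Muscle (21 genes), fat body (12), neurons (8) and immune effectors (14) had 0 called. At an unadjusted p under 0.05 they had 1, 2, 1 and 6 genes (9.07% of all genes). The fat body list took 0.0284% of counts in monogamous population 1 at 48 h and 0.00901% to 0.0148% in the other 11 libraries.

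A last group of transcripts separated 2 libraries and not the regimes. Ebp (FBgn0004181, BDGP6.54 chromosome 2R, 25175126 to 25176715, minus strand) and EbpII encode proteins of the ejaculatory bulb, which lies beyond the duct and is not among the parts named in the dissection. Ebp stood at 8.53, 1.599 and 0.837 CPM at 48 h and 3.17, 0.733 and 1.55 CPM at 96 h in polygamous populations 1 to 3, against 4.45, 0.575 and 5.96 CPM at 48 h and 506, 0.866 and 487 CPM at 96 h in monogamous populations 1 to 3. EbpII stood at 5.800, 1.45 and 0.866 CPM at 48 h and 1.82, 0.462 and 1.34 CPM at 96 h in polygamous populations 1 to 3, against 4.22, 0.256 and 3.01 CPM at 48 h and 141, 0.102 and 136 CPM at 96 h in monogamous populations 1 to 3. Both were high in the 96 h libraries of monogamous populations 1 and 3 and near absent in the other 10 libraries, including both of monogamous population 2. The seminal fluid genes Sfp60F, Sfp87B, Sfp24Bb and Sfp24Ba had the same pattern: Sfp87B reached 155 and 166 CPM in those libraries and 0.0639 to 5.68 CPM elsewhere. Of these 6 genes none was called by edgeR with all 6 populations, although Sfp87B, Sfp60F, Sfp24Bb, EbpII and Ebp had 5 of the 6 smallest p values among genes of at least 5 CPM (edgeR adjusted p = 0.401 to 0.726). Sfp24Ba, at a mean of 1.44 CPM, was called without population 1 (adjusted p = 0.000314), with 13.6 CPM in monogamous population 3 at 96 h and 0 to 0.368 CPM in the other 9 libraries of that fit, and its fitted difference has no fixed size because most libraries hold 0 or a few counts. Whether these libraries contain more of the bulb was not tested. The duct transcript Dup99B did not have this pattern and stood at 1326, 1307 and 1294 CPM at 48 h and 1059, 725 and 827 CPM at 96 h in polygamous populations 1 to 3, against 2374, 1174 and 1487 CPM at 48 h and 567, 586 and 1133 CPM at 96 h in monogamous populations 1 to 3 (difference 0.09 ± 0.29, adjusted p = 0.961).

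**Figure D5:**
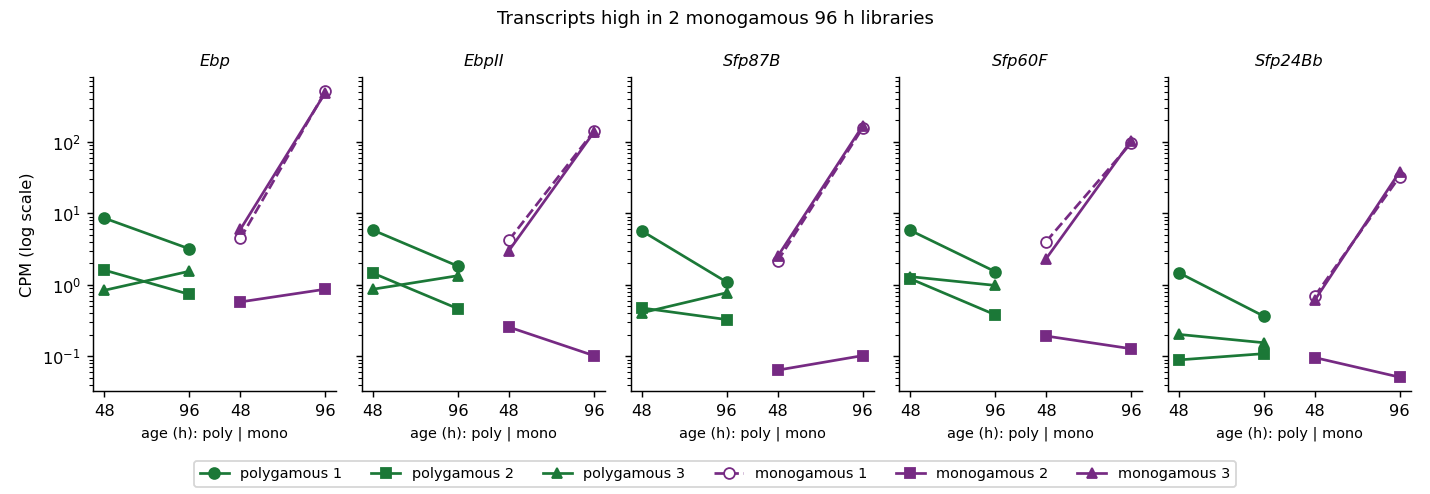
CPM (log scale) at 48 and 96 h of 5 transcripts in polygamous (green) and monogamous (purple) populations, 1 line per population, with monogamous population 1 dashed and open. Each transcript is high only in the 96 h libraries of monogamous populations 1 and 3.

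Of the 10 genes with the smallest p over all 6 populations and at least 5 CPM, the other 5 were lncRNA:CR45883, CG7083, laza, CG15784 and CG43147, and none passed. CG43147 (FBgn0262623, BDGP6.54 chromosome 3L, 13299841 to 13300152, minus strand) lies next to SP on 3L and stood at 2148, 2183 and 2873 CPM at 48 h and 1403, 1316 and 2033 CPM at 96 h in polygamous populations 1 to 3, against 1606, 1491 and 2319 CPM at 48 h and 1733, 1239.8 and 2156 CPM at 96 h in monogamous populations 1 to 3. Its 3 polygamous changes lay below its 3 monogamous changes, and the difference was -0.53 ± 0.11 with all 6 populations (edgeR adjusted p = 0.726) and -0.43 ± 0.07 without population 1 (adjusted p = 0.0221). laza, a lipid phosphate phosphatase gene, rose in every population, with changes of 0.68, 0.88 and 0.88 in the polygamous populations, against 1.56, 1.48 and 1.41 in the monogamous populations, and its difference was -0.68 ± 0.13 (adjusted p = 0.726). CG15784 gave -0.93 ± 0.19 (adjusted p = 0.726).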

How the data were processed

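Total RNA of 12 pools of 30 male reproductive tracts each was sequenced with a stranded kit, per the labels' protocols. The deposited files hold raw read counts per gene, which the authors made with Trimmomatic 0.33, TopHat2 2.1.0 and HTSeq 0.6.1 on BDGP6, per the submitters' processing notes. Which annotation release, strand option and overlap mode the counting used is not given in the sources used here. Summary lines that name no gene held 15.1% to 17.2% of each file's total and were left out. Gene symbols and coordinates came from the Ensembl annotation of BDGP6.54, and 17253 of 17559 gene rows had a symbol.

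Libraries were scaled by TMM, low genes were removed with filterByExpr, and edgeR 4.0.16 (R 4.3.3) fitted a robust quasi-likelihood model with 6 population terms and 1 age term per regime, leaving 4 residual degrees of freedom (3 without monogamous population 1). The contrast was the age term of the polygamous minus that of the monogamous populations, with Benjamini-Hochberg adjustment over all genes tested. SEs are the log2 difference divided by the square root of F. Changes per population are log2 CPM with a prior count of 2. In the libraries 3 counts equal 0.0727 to 0.0990 CPM, a floor that covers counting error only. Populations are separate evolved lines, but each library is 1 pool, so p-values refer to the spread between pools. With few residual degrees of freedom, that spread was moderated toward values shared over genes, so it is not each gene's own. For Sfp24Ba without population 1, the SE of the monogamous change was 0.44. Yet monogamous population 2 held 0 CPM of it at both ages, and monogamous population 3 changed by 6.37.

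Both libraries of a population share its number and origin, and their deviations from the group means correlated at 0.39 to 0.57, each library best with its own population, so the population stood as a block. Named genes were the up to 12 in each direction with the largest called difference, at least 5 CPM and changes that did not overlap; where too few were called over all 6 populations, the 10 with the smallest p; a fixed panel of 18 genes; and up to 4 members with the smallest p of each list with called members. The members and lists were chosen with earlier results of these data known. Alternatives were no block, leaving out each population, DESeq2 size factors, library sizes from 55 testis genes, no filter, DESeq2 1.42.0, limma 3.58.1 on the changes per population and no robust estimation; those of the fit without monogamous population 1, other than no block, were chosen after seeing the data. The scripts were tested on simulated data.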

Additional observations from a re-analysis of the deposited data

Results flagged for a closer look

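The 29 results below are the named genes whose age change differed between polygamous and monogamous populations by the test of that difference without monogamous population 1 (edgeR, adjusted p under 0.05); 0 of them passed with all 6 populations. Among seminal fluid and secondary cell genes the log2 difference was -0.41 for lectin-46Cb, -0.35 for lectin-46Ca, -0.37 for CG17575, -0.33 for CG9997, -0.32 for Sems, -0.33 for Acp32CD, -0.29 for Obp56f and -0.70 for dve. Sfp24Ba had a fitted difference of -8.60, which depends on the prior count because most libraries hold 0 or a few counts.

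Among other genes with a lower age change in polygamous males, the difference was -0.53 for CG6770, -0.82 for lncRNA:CR45883, -0.95 for lncRNA:CR45256, -0.65 for CG8630, -0.64 for CG7083, -0.74 for CG14022, -0.53 for asRNA:CR45882 and -0.43 for CG43147. It was -0.51 for CG43267, -0.53 for alpha4GT2, -0.52 for CG11131 and -0.55 for CG46042. For single members of larger lists it was -0.40 for RpL22, -0.26 for Spn42Dd, -0.29 for Ugt35B1 and -0.27 for Ugt50B3. A higher age change in polygamous males was found for Adgf-A (0.66), Dso1 (0.56), CG8852 (0.38) and Jon65Aiii (3.97), the last of which was not called without monogamous population 2, whose 48 h library held 15.3 CPM.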

How the results depend on the processing

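With all 6 populations, the count of genes called for the difference was 0 to 110 on leaving out 1 population, 1 with no filter on low counts and 1 with DESeq2, and the count of called seminal fluid genes was 0 to 26, 1 and 1 under the same settings. Their median stayed negative, between -0.89 and -0.29 on leaving out 1 population and at -0.24 with no replicate block and without the 48 h library of monogamous population 1. Without population 1, the count of called genes was 0 with no replicate block, 32 with testis scaling, 19 with no robust estimation and 19 to 171 on leaving out a further population (a monogamous one leaves a single monogamous population, assumed to vary like the polygamous ones), and the count of seminal fluid genes was 0, 8, 7 and 4 to 36 in the same order. Genes called for age in polygamous males numbered 42 with all 6 populations, 8 with no replicate block (373 without the 48 h library of monogamous population 1, 3 without its 96 h library and 367 without both), 10 with testis scaling, 165 with DESeq2 and 0 to 1999 on leaving out 1 population. In monogamous males they numbered 197, then 64 with no replicate block (4 without the 96 h library of population 1 and 88 without both), 63, 380 and 41 to 1092. Testis scaling moved the median of all genes by age to 0.06 in polygamous and 0.17 in monogamous males with all 6 populations. The difference of Jon65Aiii with all 6 populations turned to -0.38 with no replicate block and lay between -2.66 and 3.97 on leaving out 1 population. Without population 1, the difference crossed 0 on leaving out a further population for Obp99b (-1.39 to 0.25), Obp56e (-0.42 to 0.075), bam (-0.31 to 0.091), SP (-0.30 to 0.041), Dup99B (-0.21 to 0.39) and betaTub85D (-0.060 to 0.023). None of these 7 was a called difference except Jon65Aiii without population 1. Of the other values of single genes under an alternative, 539 kept direction and side of the threshold and 34 gained a call with all 6 populations, while 386 kept both, 141 lost the call and 10 gained one without population 1. DESeq2 gave no adjusted p for 5 genes, which are not counted here. The causes were not tested. The fit without population 1 rests on 2 monogamous populations, and the choice to leave it out was made with its values known.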
